A study of Mus musculus with 3 samples.

Results

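The adaptors, kinases, and helper proteins that stand directly around Toll-like receptors were followed in activated macrophages. The family comprised 8 of the 34821 gene names on the array, namely Myd88, Irak1, Irak2, Irak3, Irak4, Traf6, Unc93b1, and Cd14. Every probe that was not a control and carried 1 of these names was taken, which gave 14 of 55681 probes. Irak3, the inhibitory kinase of the family, was set against the 7 positive members.

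BMDMs, macrophages grown from C57BL/6J mouse bone marrow in M-CSF from L929 cells carrying a human M-CSF plasmid, were stimulated for 20 h. The CpG cells received CpG DNA, a ligand of TLR9. The second group received IFN-γ together with αIL-10R, an antibody that blocks the IL-10 receptor and is written IL-10RB in the labels. The Triple cells received all of these agents. The measurement was 1 single-color Agilent array per condition, so that no difference has a replicate check and no p-value is given. Unstimulated cells were not analysed here, no array held IFN-γ without αIL-10R so that their effects cannot be told apart, and nothing in the labels says whether the 3 cultures came from separate animals.

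Toll-like receptors and the receptors for IL-1 and IL-18 carry a cytoplasmic TIR domain. On most of them, though not on TLR3, MyD88 binds to that domain after ligand contact. MyD88 assembles IRAK4 with IRAK1 and IRAK2 through death domains, IRAK4 phosphorylates the other kinases, and TRAF6 then builds ubiquitin chains that activate TAK1 and the IκB kinases. IRAK3, also called IRAK-M, is made mainly by monocytes and macrophages and holds this assembly back. UNC93B1 escorts TLR9 and other nucleic acid sensing receptors to endolysosomes, and CD14 presents lipopolysaccharide to TLR4.

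The members differed in how many sequences reported on them. Irak2 and Irak3 are shown because they moved most among the kinases. The probe A_55_P2082974 of Irak2 lay at chr6:113643695-113643754 on the plus strand of mm9, the build named in the scanner files. The probe of Irak3 lay at chr10:119578999-119579058 on the minus strand. The exons and untranslated parts under these positions were not annotated here. The first 30 of the 60 bases are given for the dimmer Irak2 probe and for the Irak3 probe. Neither shared a run of 16 bases, on either strand, with a probe of another gene name, so no base is in capitals.
Irak2 probe A_55_P2082974: aagccaaaaggagactgatggagaacatcg
Irak3 probe A_52_P386627: ttaccaccggcacttaatgctagtctttct
Of all 55681 probes, 27.7% shared a run of this length with another gene name, so that such a match was common on the array. The brighter Irak2 probe A_55_P2082979, which represents the gene in the calls, shared such runs with 3 probes of 3 other gene names. These runs lay within its bases 1 to 18. Whether they affect its signal was not tested.

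Promoters from RefSeq (GRCm38.p6) were compared for 6 of the 8 members, with 8 start sites in all, and not for Unc93b1 and Cd14. The 250 bases before the start are printed for Irak2 and Irak3, the kinases that moved, and for Myd88, which held most of the matches. Capitals mark matches, on either strand, to any of 5 motifs, namely the NF-κB type GGNNTTTCC, the interferon response element type GAAANNGAA, the GAS type TTCNNNGAA, the AP-1 type TGANTCA, and the CRE type TGACGTCA.
Irak2, chr6:113638217-113638466, plus strand: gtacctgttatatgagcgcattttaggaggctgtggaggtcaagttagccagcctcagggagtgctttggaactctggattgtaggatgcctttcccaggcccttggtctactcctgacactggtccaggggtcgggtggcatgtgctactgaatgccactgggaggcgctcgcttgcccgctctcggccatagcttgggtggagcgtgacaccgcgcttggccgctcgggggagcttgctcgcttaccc
Irak3 start 1, chr10:120201598-120201847, minus strand: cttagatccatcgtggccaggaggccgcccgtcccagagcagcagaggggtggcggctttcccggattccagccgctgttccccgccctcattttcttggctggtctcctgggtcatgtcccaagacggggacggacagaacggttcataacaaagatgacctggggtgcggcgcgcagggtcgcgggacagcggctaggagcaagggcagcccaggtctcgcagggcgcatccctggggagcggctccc
Irak3 start 2, chr10:120202131-120202380, minus strand: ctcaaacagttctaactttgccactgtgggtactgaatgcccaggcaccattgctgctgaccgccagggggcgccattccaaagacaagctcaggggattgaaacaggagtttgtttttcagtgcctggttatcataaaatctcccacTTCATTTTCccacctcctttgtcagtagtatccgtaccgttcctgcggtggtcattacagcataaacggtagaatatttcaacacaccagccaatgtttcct
Myd88, chr9:119340019-119340268, minus strand: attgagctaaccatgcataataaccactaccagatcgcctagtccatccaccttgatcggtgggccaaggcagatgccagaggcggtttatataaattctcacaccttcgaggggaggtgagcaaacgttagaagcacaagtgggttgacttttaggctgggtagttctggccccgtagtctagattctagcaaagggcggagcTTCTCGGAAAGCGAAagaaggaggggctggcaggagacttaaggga
Irak2 and the first start of Irak3 held none of the 5 motifs in this window. The second start of Irak3 held 1 interferon response element type match, on the strand opposite to the gene, between 102 and 94 bases before the start. Myd88 held 1 GAS type match from 46 to 38 bases and 1 interferon response element type match from 40 to 32 bases before its start, and these overlapped. Among the 32851 promoters in the table, the share with a match was 4.93% for the NF-κB type, 7.13% for the interferon response element type, 7.02% for the GAS type, 6.75% for the AP-1 type, and 1.55% for the CRE type. The starts of Irak1, Irak4, and Traf6 held no match to any of them. These letters are descriptions of the window and were not tested as binding sites.

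The values below are the processed signals of the scanner software, intensities without a unit, and folds were taken after the arrays had been set to a common 75th percentile. Probes spotted more than once showed a technical SD of 0.115 for a log2 fold between single spots, which covers spot noise and not differences between cultures. The software's own error estimate was between 10.0% and 10.5% of the signal for each member probe above background. A probe was well above background where the software marked it so, which held for 13 of the 14 member probes on all 3 arrays and for all 8 members. The exception was the Traf6 probe A_55_P2151689, with a signal of at most 18.9, and no fold is given for it. A gene was called higher or lower at more than 2-fold. Signals are given in the order CpG, IFN-γ + αIL-10R, and Triple, and are compared between arrays, not between probes.

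**Figure D1:**
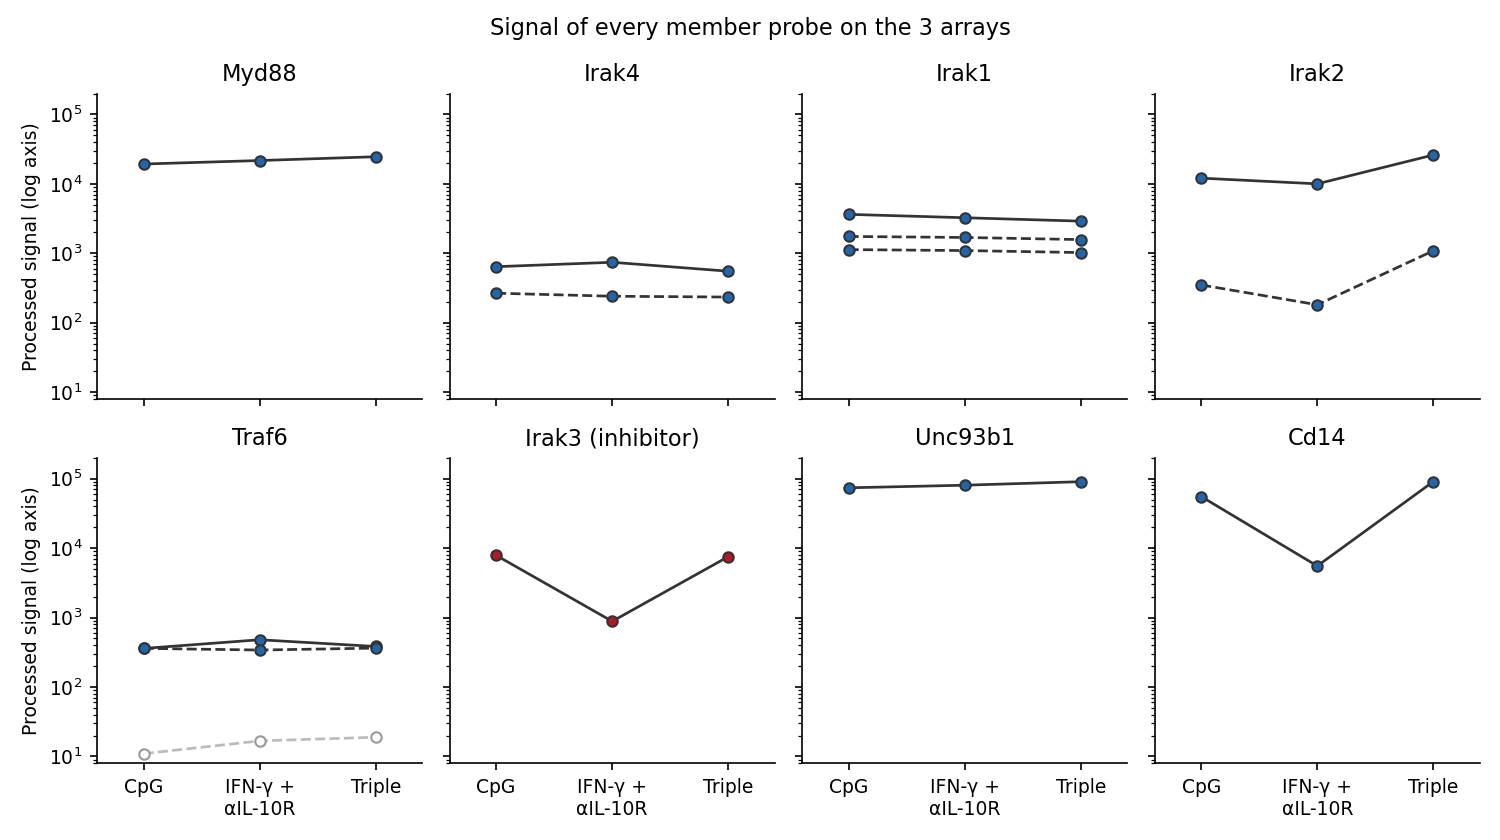
Processed signal (log axis) of all 14 member probes on the 3 arrays, with 1 panel for each gene. Solid lines mark the probe that represents the gene, dashed lines its other probes, and open grey points the Traf6 probe below background. Irak3 and Cd14 dip in IFN-γ + αIL-10R, both Irak2 probes peak in Triple, and the other members run nearly level.

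Irak3 separated the conditions with CpG from the condition without it. Its signals were 7877, 883, and 7541. Both arrays with CpG were therefore high and lay close to each other, and IFN-γ + αIL-10R was low. Irak3 was 8.72-fold higher in Triple than in IFN-γ + αIL-10R (log2 fold 3.12) and 8.77-fold higher in CpG than in IFN-γ + αIL-10R (log2 fold 3.13). Between Triple and CpG the log2 fold was -0.01, inside the technical SD. Among 15894 genes that were well above background throughout, it ranked 96 from the highest fold in Triple and 47 in CpG, each set against IFN-γ + αIL-10R.

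Cd14, the co-receptor, had signals of 55389, 5534, and 90961. The array without CpG was again far below the others, and here Triple exceeded CpG. The gene was 16.8-fold higher in Triple and 9.84-fold higher in CpG than in IFN-γ + αIL-10R, the largest fold of the family in either comparison. Triple over CpG was 1.71-fold (log2 fold 0.77), above the technical SD but under the 2-fold threshold.

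Irak2, the kinase that sustains signaling after the first response, was highest in Triple with both of its probes. The brighter probe A_55_P2082979, which represents the gene, read 12074, 9997, and 26035, and the dimmer probe A_55_P2082974 read 350, 181, and 1087. The order of the 3 arrays was the same for both. From IFN-γ + αIL-10R to Triple, the brighter probe was 2.66-fold and the dimmer probe 6.13-fold higher. Triple over CpG was 2.24-fold with the brighter probe and 3.23-fold with the dimmer. For CpG over IFN-γ + αIL-10R, the values were 1.19-fold and 1.90-fold, both under the threshold. The probes thus gave the same calls in all 3 comparisons but differed in size by more than the technical SD. The cause of the difference was not tested.

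The central adaptor, the initiating kinases, TRAF6, and the trafficking protein stayed within 2-fold in every comparison. These 5 members gave 15 folds between 0.737 and 1.32, and the largest absolute log2 fold among them was 0.44. Of the 15 values, 7 lay beyond 2 technical SD, which is 0.23 on the log2 scale. This was not particular to these members, since most genes passed that mark. Over 15894 genes the median absolute log2 fold was 0.32 for Triple over IFN-γ + αIL-10R, 0.32 for Triple over CpG, and 0.26 for CpG over IFN-γ + αIL-10R.

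Myd88 was measured by 1 probe spotted 10 times on each array, at chr9:119245322-119245381 on the minus strand of mm9. Its spots averaged 19292 ± 459 in CpG (SD, n = 9 spots), 21670 ± 671 in IFN-γ + αIL-10R (SD, n = 10 spots), and 24580 ± 709 in Triple (SD, n = 9 spots), after the 1 spot with an outlier mark on each of the CpG and Triple arrays was left out. The spots of CpG ran from 18336 to 19695, those of IFN-γ + αIL-10R from 20171 to 22635, and those of Triple from 23458 to 25334. The spots kept therefore did not overlap between arrays in unscaled signal, whereas the left-out spot of CpG, at 21063, lay inside the range of IFN-γ + αIL-10R. How many other replicated probes separate in this way was not counted, so it cannot be read as a trait of Myd88. The difference also depended on scaling. The log2 fold of Triple over IFN-γ + αIL-10R was 0.21 in the main setting and 0.08 with spike-in scaling. Over the 8 spot positions kept on all arrays, the scaled log2 fold was 0.40 ± 0.06 for Triple over CpG, 0.22 ± 0.06 for Triple over the condition without CpG, and -0.18 ± 0.06 for CpG over that condition (SD over spots, n = 8). The spots of 1 array share its RNA, so this spread is technical and says nothing about other cultures.

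**Figure D2:**
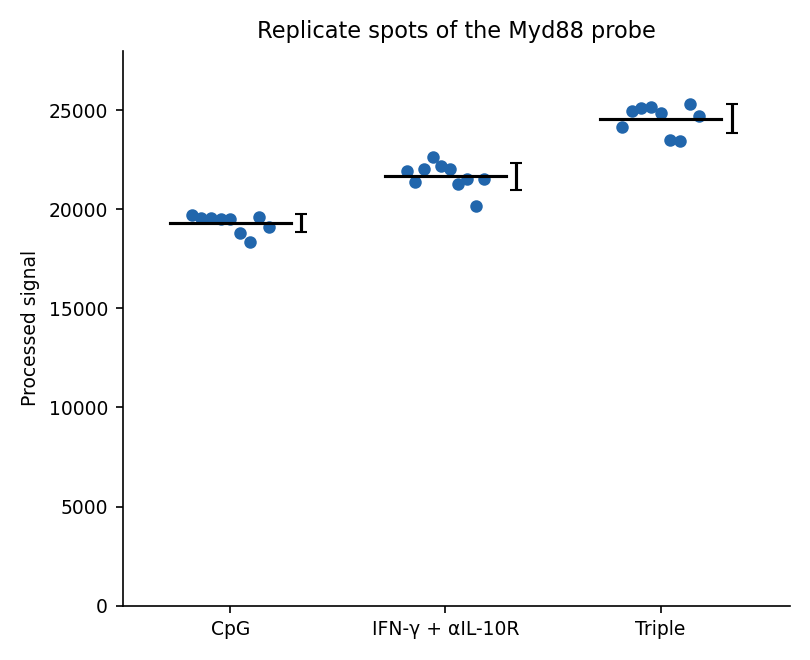
Processed signal of each Myd88 spot without an outlier mark (points), by array, with the mean (line) and the SD over spots (bar). The 3 groups of spots shown do not overlap in unscaled signal, and the means rise from 19292 in CpG to 24580 in Triple. The steps of Irak3 and Cd14 from IFN-γ + αIL-10R to the arrays with CpG were far larger. From CpG to Triple, Irak3 was nearly level.

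Irak4, the kinase that starts the cascade, read 641, 742, and 551 with the probe at chr15:94397743-94397802 and 266, 240, and 234 with its other probe. The largest of its log2 folds was -0.40, for Triple over IFN-γ + αIL-10R with the first probe. The other probe gave -0.01 for the same comparison, so that the difference was not shared. Irak1, its substrate, read 3633, 3248, and 2901 with the probe at chrX:71259533-71259592. Its log2 folds were -0.13 against IFN-γ + αIL-10R and -0.27 against CpG in Triple. The other probes of Irak1 read 1747, 1688, and 1574, and 1129, 1094, and 1023, with log2 folds between -0.09 and 0.02. All 3 Irak1 probes were lowest in Triple.

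Traf6, the ubiquitin ligase, read 360, 479, and 384 with the probe at chr2:101540660-101540719 and 360, 341, and 363 with A_55_P1998380. The first probe was highest in IFN-γ + αIL-10R, at a log2 fold of -0.44 for CpG against it, whereas the second gave 0.06 and was nearly level. Unc93b1, the escort of TLR9, read 73980, 80658, and 90627 at chr19:3949081-3949140. It was 1.27-fold higher in Triple than in CpG and 1.15-fold higher in Triple than in IFN-γ + αIL-10R, within the threshold in both.

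Setting Triple against IFN-γ + αIL-10R asks what CpG adds. Of the 8 members, 3 were higher, namely Cd14, Irak3, and Irak2, and 0 were lower. Among the same 15894 genes, 5.13% were higher and 8.24% lower. The median log2 fold was 0.21 over the members and -0.04 over all these genes.

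The comparison of Triple with CpG asks what IFN-γ and αIL-10R add. Irak2 was the 1 member called higher and 0 were lower. Of the same 15894 genes, called all genes here, 5.99% were higher and 7.00% lower. The median log2 fold of the members was 0.25, and that of all genes was -0.05. For CpG over IFN-γ + αIL-10R, Cd14 and Irak3 were higher and 0 members were lower, beside 3.74% and 4.84% of all genes, with medians of -0.01 over the members and -0.0017 over all genes. All 3 comparisons share arrays, so that they are not independent of each other, and 8 members are too few to read a share from.

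**Figure D3:**
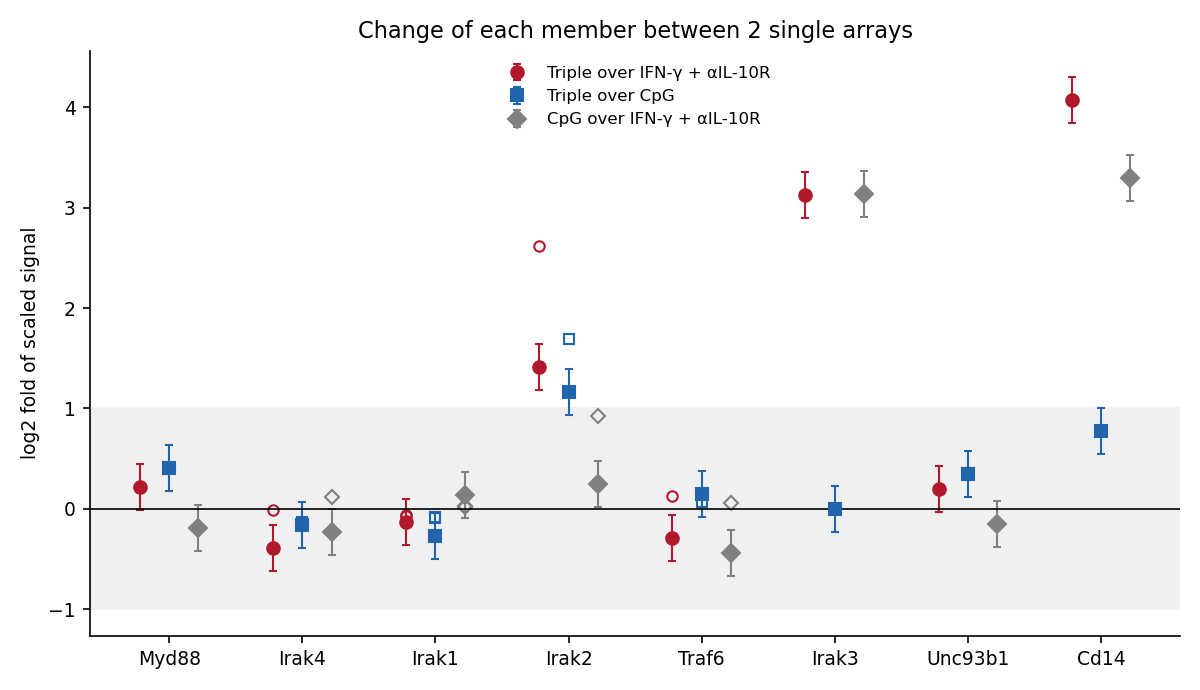
Log2 fold of the scaled signal of each member in the 3 comparisons. Filled symbols are the probes that represent the genes with bars of 2 technical SD, open symbols are other probes well above background, and the grey band marks 2-fold. Cd14, Irak3, and Irak2 leave the band, Irak2 only in the comparisons with Triple, and the other 5 members stay inside it.

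The change of each positive member was set against the change of Irak3 between the same arrays. IRAK3 holds back the assembly of MyD88 with the other IRAKs, whereas UNC93B1 and CD14 act on the receptors and not in that assembly. From IFN-γ + αIL-10R to Triple, 6 of the 7 positive members had a lower log2 fold than Irak3, and that of Cd14 was higher by 0.94. Irak3 ranked 96 of 15894 genes in this comparison, so nearly all genes had a lower log2 fold than it, not these members alone. The fold of Irak3 divided by that of a member is called its gain here. Against the 5 members within 2-fold, each by the probe that represents it, the gain lay between 7.53-fold for Myd88 and 11.5-fold for Irak4. With the other probe of Irak4 it was 8.77-fold. These values lie around the 8.72-fold change of Irak3 itself, since those members changed little. Against Irak2 the gain was 3.28-fold with the brighter probe and 1.42-fold with the dimmer probe.

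From CpG to Triple the log2 fold of Irak3 was close to 0. Its gain over the same 5 members lay between 0.751-fold and 1.20-fold, and Irak2 gained 2.25-fold on it with the brighter probe and 3.25-fold with the dimmer. For CpG over IFN-γ + αIL-10R, Irak3 gained between 7.97-fold for Irak1 and 11.9-fold for Traf6 on these 5 members. On the Traf6 probe A_55_P1998380 Irak3 gained 8.44-fold. Its gain was 7.38-fold against the brighter probe of Irak2 and 4.62-fold against the dimmer. Irak3 ranked 47 of 15894 genes in that comparison, so nearly all genes had a lower log2 fold than it. Cd14 and Irak3 differed there by 0.17 in log2 fold, close to the technical SD of 0.162 for a difference of folds. These are differences of changes in RNA and carry no ratio of proteins.

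**Figure D4:**
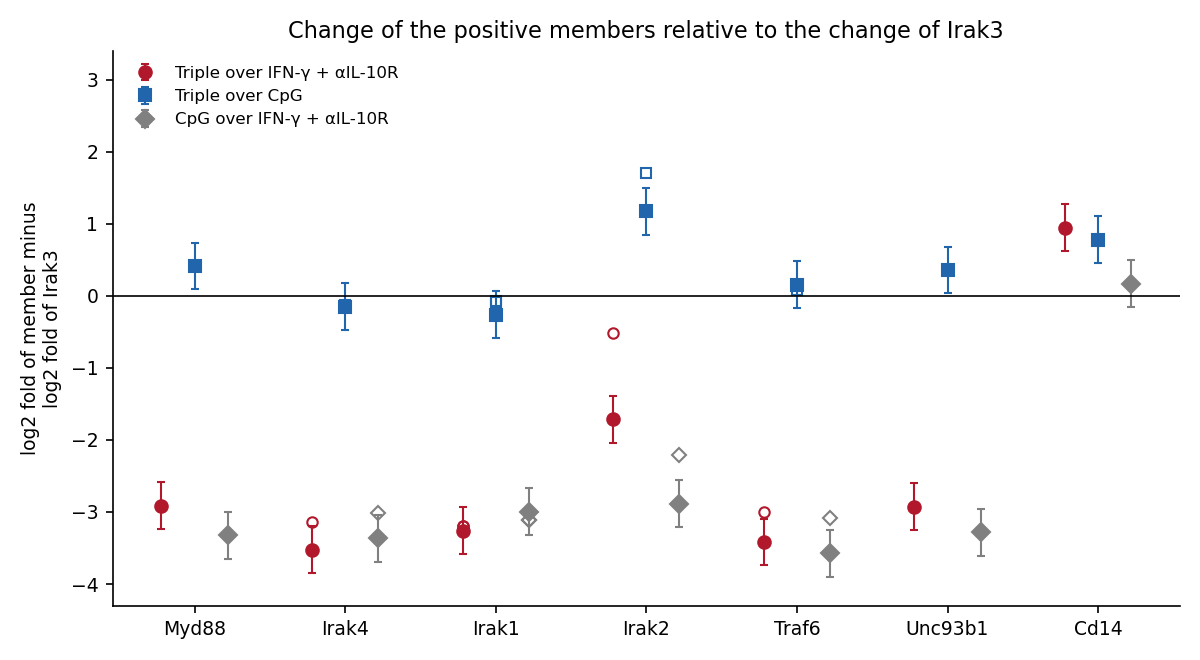
Log2 fold of each positive member minus the log2 fold of Irak3, for the 3 comparisons. Filled symbols have bars of 2 technical SD of such a difference, and open symbols are other probes. In both comparisons against IFN-γ + αIL-10R all positive members except Cd14 lie below 0, and in Triple over CpG Irak2 lies highest. Nearly all genes would lie below 0 in the comparisons against IFN-γ + αIL-10R, where Irak3 ranked 96 (Triple) and 47 (CpG) of 15894.

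The genes whose 3 values were most like those of the called members were found by the Euclidean distance of centered log2 values over the 3 arrays, among 11501 genes. The closest to Irak2 were Traf2, a ubiquitin ligase of TNF receptors, at 0.0079, Mocs1, an enzyme of molybdenum cofactor synthesis, at 0.021, and Agpat4, an acyltransferase of phospholipid synthesis, at 0.024. The closest to Irak3 were Clec4d, a myeloid lectin receptor, at 0.085, St7 at 0.10, and Gpr126, an adhesion receptor, at 0.19. The closest to Cd14 were Pilra, an inhibitory receptor of myeloid cells, at 0.16, Nfkbiz, an atypical IκB protein, at 0.18, and Lcn2, an iron scavenging lipocalin, at 0.27. With 3 arrays, likeness is a loose description.

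Around the family, 6 lists of other pathway genes were counted. They held 62 genes, of which 56 were measured on all arrays. Of these, 50 were well above background on at least 1 array and 48 on all of them. In these lists together, 8 genes were higher and 8 lower in Triple than in IFN-γ + αIL-10R, 9 were higher and 1 lower in Triple than in CpG, and 2 were higher and 9 lower in CpG than in IFN-γ + αIL-10R. Over all genes well above background on the 3 arrays, the shares higher and lower were 5.13% and 8.24%, 5.99% and 7.00%, and 3.74% and 4.84% in these comparisons, and the lists, chosen with results known, were not tested against them.

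Among 6 other TIR adaptors, 5 were above background. Ticam1, the TRIF adaptor, read 2877, 1876, and 4575 and was 2.49-fold higher in Triple than in IFN-γ + αIL-10R. Ticam2, which bridges TRIF to TLR4, was 3.57-fold higher in that comparison and 2.05-fold higher in Triple than in CpG. Scimp, a membrane adaptor of TLR signaling, read 160, 4688, and 2219, was 29.8-fold lower in CpG and 2.07-fold lower in Triple than in IFN-γ + αIL-10R, and was 14.4-fold higher in Triple than in CpG. The list thus held both directions.

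Of 9 accessory and trafficking proteins, 8 were measured, and the 2 called genes were the RP105 pair. Ly86, which encodes MD-1, was 4.44-fold lower in Triple and 4.51-fold lower in CpG than in IFN-γ + αIL-10R, at signals of 27477, 121780, and 26848. Cd180, which encodes RP105, was 3.04-fold lower in CpG than in IFN-γ + αIL-10R, and in Triple the difference was 1.63-fold, under the threshold. Slc15a4 and Ap3b1, which serve endosomal receptors, stayed within 2-fold, at log2 folds between -0.18 and 0.28.

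Of 13 kinases and ubiquitin enzymes below the IRAKs, 12 were measured and were mostly level. Their median log2 fold was 0.26 for Triple against IFN-γ + αIL-10R and 0.13 for Triple against CpG. Map3k8, the kinase TPL2, was 2.61-fold higher in Triple and 2.16-fold higher in CpG than in IFN-γ + αIL-10R. Ikbkg, the IκB kinase subunit NEMO, was 2.11-fold higher in Triple than in IFN-γ + αIL-10R, and Peli1, a ubiquitin ligase of IRAKs, 2.61-fold higher in Triple than in CpG. Peli2, its relative, was 2.32-fold lower in Triple than in IFN-γ + αIL-10R at signals of 96.2, 169, and 71.3.

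Among 11 other inhibitors, 10 were measured. Of these, 2 were higher in Triple than in IFN-γ + αIL-10R and 4 were higher in Triple than in CpG. The shares over genes well above background on all arrays were 5.13% and 5.99%. In these comparisons 0 were lower, beside 8.24% and 7.00%, and in CpG 2 were lower than in IFN-γ + αIL-10R, beside 4.84%. Tnfaip3, the deubiquitinase A20, read 2435, 1684, and 8910, which was 5.41-fold above IFN-γ + αIL-10R and 3.80-fold above CpG in Triple. Tank, a TRAF binding regulator, was 3.04-fold and 2.03-fold higher in the same comparisons. Both were highest in Triple, as Irak2 was.

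Socs1 and Trafd1 followed IFN-γ + αIL-10R instead. Socs1, an inhibitor of cytokine signaling, read 1059, 40651, and 50881, 49.9-fold higher in Triple than in CpG and 39.0-fold lower in CpG than in IFN-γ + αIL-10R. Trafd1, a regulator of TRAF6, was 2.26-fold higher in Triple than in CpG and 2.59-fold lower in CpG than in IFN-γ + αIL-10R. Tollip, which binds IRAK1, stayed within 2-fold throughout.

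Of 15 receptors that use MyD88, 11 were above background on some array, and 1 was higher and 4 lower in Triple than in IFN-γ + αIL-10R, beside 5.13% and 8.24% of all genes. Tlr9, the receptor of CpG DNA, read 1473, 2566, and 1887 and was not called. Tlr13, a sensor of bacterial ribosomal RNA, read 35364, 71401, and 16630. It was 4.20-fold lower in Triple and 2.05-fold lower in CpG than in IFN-γ + αIL-10R, and also 2.05-fold lower in Triple than in CpG. Tlr12, a receptor for profilin, was at least 207-fold lower in CpG, where it was not well above background, and 6.59-fold lower in Triple than in IFN-γ + αIL-10R. It was at least 31.4-fold higher in Triple than in CpG. Tlr11, its relative, was not well above background with CpG and was at least 11.5-fold lower in CpG and at least 9.99-fold lower in Triple. Tlr1 was 2.53-fold higher in Triple than in IFN-γ + αIL-10R, Tlr6 3.12-fold higher in Triple than in CpG, and Tlr8 2.35-fold lower in Triple than in IFN-γ + αIL-10R.

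In the TRIF and type I interferon list of 8 genes, 6 were measured, without Traf3 and Irf5, and 2 were called. In Triple and in CpG, 1 was higher and 1 lower than in IFN-γ + αIL-10R. Over all genes, 5.13% were higher and 8.24% lower in Triple, and 3.74% and 4.84% in CpG. Ikbke, a kinase of IRF3, was 5.28-fold higher in Triple and 3.01-fold higher in CpG than in IFN-γ + αIL-10R. Tlr3, the sensor of double-stranded RNA, was 2.01-fold lower in Triple and 2.93-fold lower in CpG than in IFN-γ + αIL-10R.

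**Figure D5:**
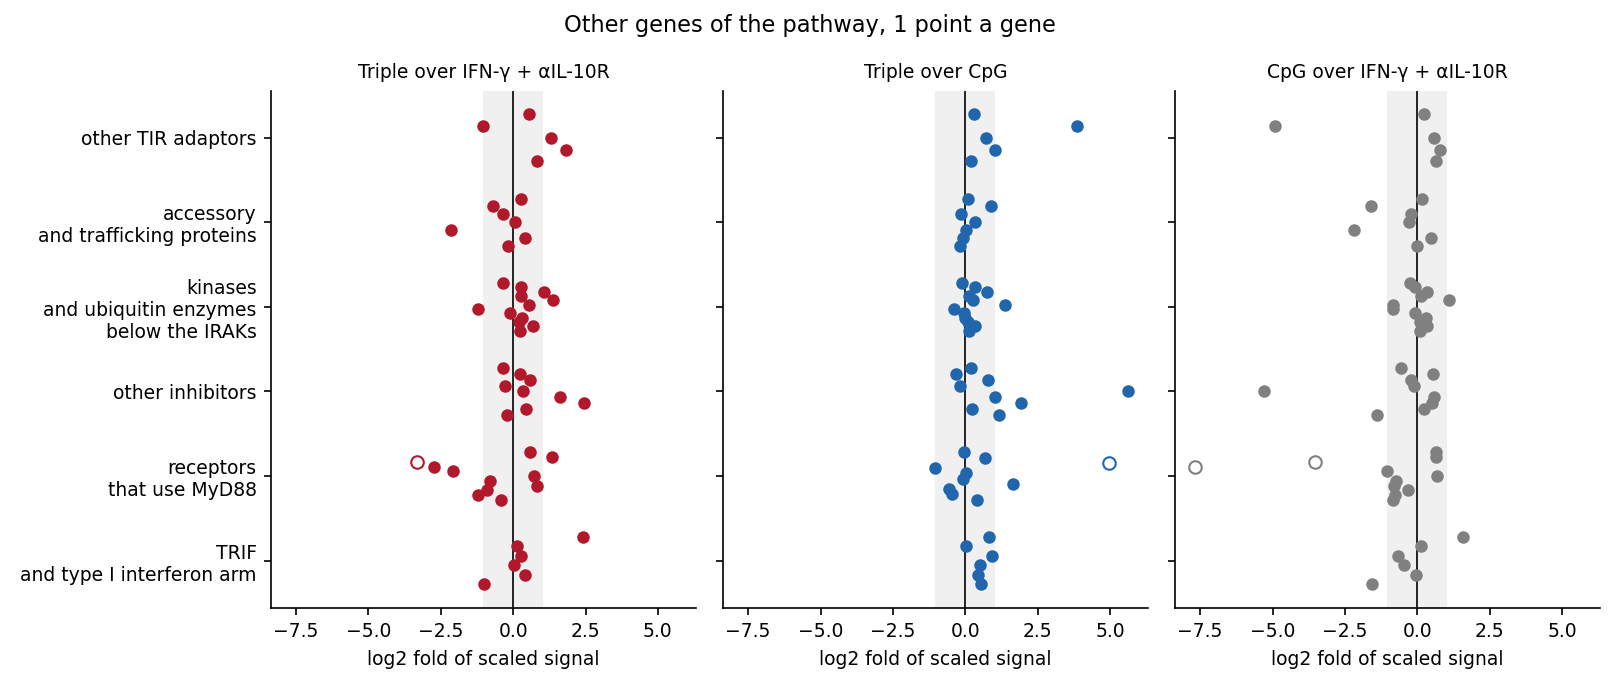
Log2 fold of the scaled signal of each gene in the 6 pathway lists, by comparison. Filled points were above background in both arrays, open points are bounds, and the grey band marks 2-fold. The kinases and ubiquitin enzymes crowd around 0, whereas Scimp, Socs1, Tlr12, and Tlr11 lie far out.

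The labels were checked with genes of the IFN-γ response. Gbp2, a guanylate-binding protein, read 3111, 239515, and 252036, Irf1 read 9196, 132675, and 123964, and Cxcl9 read 38.6, 14431, and 230855, all lowest in CpG. Ciita, another target, read 114, 258, and 63.3, and Ido1 was above background in Triple alone. All 6 measured macrophage markers were well above background on every array, Csf1r among them at 159074 to 230482.

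Of 26 measured markers of other cell types, 16 were below background on all arrays, including Ms4a1, Cd3d, Cd3g, Cd8a, Mpo, Ngp, and Flt3, and 7 were well above background on all of them. The latter included Cd3e at 858, 869, and 806 and Lck at 94.4, 169, and 150 among the T cell markers, and Cd79a at 66.6, 75.5, and 43.6 among those of B cells. The summed signal of the 5 neutrophil markers was 3489, 9354, and 4348, and its members differed in direction. Ly6g read 555, 7699, and 2658, Elane 2839, 1615, and 1539, and Camp 72.9, 17.5, and 139, not well above background in IFN-γ + αIL-10R. The sum over the 4 dendritic cell markers was highest in Triple at 213. Zbtb46 read 25.1, 36.3, and 133, and Xcr1 was above background in Triple alone, where Irak2 was highest too. Their part in the result was not tested. In such bulk RNA, fewer cells of a type and less RNA per cell cannot be told apart.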

How the data were processed

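Total RNA was measured in BMDMs of 3 conditions with 1 Agilent SurePrint G3 Mouse array each, so that no test between conditions was possible. The authors deposited spot values from Agilent Feature Extraction (version 10.10.1.1), in which the processed signal is a background-subtracted intensity, together with a processed table. That table, deposited as log2 values with no stated normalization, differed in each column from the log2 signal by a single offset, within 0.01 for 100% of probes, equal to signals of 368, 373, and 338. The column medians were -4.26, -4.38, and -4.27. The deposited files also hold, per spot, marks for outliers and for signal well above background.

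Spots that were not controls (59305 per array, of which 44.4% to 46% were well above background and 0 saturated) were used except the 3.04% to 3.78% marked as outliers. Log2 values were averaged within a probe. The 75th percentile over 21233 probes that were well above background in every condition was then subtracted, since fewer than 50% of spots reached that mark. The percentiles were 4550, 4473, and 4377. A gene was its probe with the highest mean, which left 33597 gene names. Dim signals were raised to the lowest signal well above background, between 23.8 and 26.7, and folds against these are bounds. The technical SD came from 234 to 248 probes spotted more than once per array and was larger for dim spots. Arrays, by their number, limit the precision.

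The members and lists were chosen with earlier results of these data known. All 8 members were named with every probe, and from each list every called gene up to 6 by the largest fold, with the cell type markers, Tlr9, Tollip, Slc15a4, and Ap3b1 named after their values were seen. Of the 14 member probes, 12 had an accession found in the RefSeq table of GRCm38.p6, which gave no coordinates for probes. Some markers and 1 probe sequence are not reported here. The alternatives covered background correction (normexp, offset 50, limma 3.58.1 in R 4.3.3), scaling, filters, choice of probe, and threshold. The code was tested on simulated arrays for Triple over IFN-γ + αIL-10R with 33597 genes, where 100% of 200 changed genes were recovered. The planted changes all exceeded the threshold, in genes well above background and with spot noise alone. This checks the code and not how well real changes are found. Python 3.11.15, numpy 2.4.6, and pandas 2.3.3 were used.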

Additional observations from a re-analysis of the deposited data

How the results depend on the processing

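No paired analysis was possible because there was a single array for every condition. Across 11 alternatives of background correction, scaling, filter, and probe, no member fold left its side of the 2-fold threshold. Of 264 such values 237 moved by less than the technical SD, but some of these could not move. All 8 members were well above background, so dropping the filter changed none of them. The choice of probe could not change the 4 members with exactly 1 probe, Irak3 among them. The log2 fold of Irak3 became 2.99 for CpG over IFN-γ + αIL-10R with normexp correction and 2.99 for Triple over IFN-γ + αIL-10R with spike-in scaling. At a 1.5-fold threshold 2 members, Irak2 and Cd14, were higher in Triple than in CpG, and at a 3-fold threshold 0 were. For Triple over IFN-γ + αIL-10R the count of members higher fell from 3 to 2 at the 3-fold threshold, which Irak2 did not reach. Between scalings the median of all genes for Triple over IFN-γ + αIL-10R shifted by -0.13 with spike-ins and by up to 0.11 where all probes set the percentile, and under these 2 every member fold shifted by the same amount. With the dimmest probe of each gene, Irak2 ranged up to 2.62, and the small folds of Traf6 and Irak4 changed sign in the comparisons against IFN-γ + αIL-10R, except Irak4 in Triple, which went to -0.01. The causes were not tested.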
